A study of Mus musculus with 2 samples.

Results

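Transcripts of 9 orphan and heterodimer nuclear receptor genes were followed in uterine epithelium of pregnant mice with and without Stat3, the transcription factor that relays leukaemia inhibitory factor signals to the nucleus. The genes were Nr4a1, Nr4a2, Nr4a3, Nr2f1, Nr2f6, Rxra, Rxrb, Vdr and Thra, 9 of 12393 genes that the array names. They were chosen with earlier results of these data known, and their probe sets were found by symbol. Each was represented by its brightest probe set, the group of short oligonucleotides that reads 1 transcript. Both arrays carried RNA of uterine epithelial cells freed with trypsin on day 4 of pregnancy. Each array held pooled RNA (n = 3 in each pool), from mice with the genotype label control on one and Stat3 knockout on the other. The title of the knockout sample also says Stat3 flox control, as does that of the control sample, so the groups rest on the genotype labels, and the sample descriptions separate them in the same way. The sources used here do not give age, strain or the Cre driver of the deletion. With 1 array per group, no difference has a replicate check, so differences are described by their size alone and no p-value or error of a group mean exists.

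Nuclear receptors are transcription factors that bind DNA through a zinc finger domain, and many are switched on by a small lipophilic ligand. Orphan receptors are those named before a ligand was known. The NR4A receptors are immediate early gene products, controlled mainly by how much of them is made, and bind DNA as monomers or dimers. RXR receptors are the shared partners of the vitamin D, thyroid hormone, retinoic acid, PPAR and LXR receptors. In the uterus, ovarian steroid receptors govern the change of the epithelium before implantation. The activity of the receptors described here was not measured.

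Values are MAS5 signals, the linear brightness of a probe set after background correction. A floor of 14.0 was set at the 40th percentile of all signals, and a gene under it on both arrays was given no ratio. The arrays had the same trimmed mean signal, 150.1. The brightest probe set of Stat3 itself read 582 (control) and 186 (knockout), 3.12-fold lower, and whether that probe set lies in the deleted part was not determined. All 11 epithelial markers on the array were over the floor on both arrays, among them Krt8, with 4220 and 4289, and Cldn7, with 3349 and 3341. Of these 11, 2 were past 2-fold lower in the knockout: Muc1, a surface mucin gene, with 418 and 99.0, and Krt7, a keratin gene, with 1592 and 460. Of 8 markers of T, B and natural killer cells, 7 were under the floor on both arrays, as were both red blood cell markers on the array. Stromal markers summed to 2789 in the control and 3889 in the knockout, a ratio of 1.39, with 10 of 11 ratios above 1 and Hand2 under the floor on both arrays. Dcn, with 1235 and 1753, made up much of these sums. Dimmer probe sets of Col1a2 (50.6 and 47.8) and Col3a1 (35.6 and 32.2) were slightly lower in the knockout, while those of Vim and Nr2f2 were higher. Macrophage and dendritic cell markers summed to 520 and 784, a ratio of 1.51, with 8 of 9 ratios above 1 and Itgax under the floor on both arrays. Of all genes with a ratio, 53.4% had a ratio above 1. T, B and natural killer cell markers summed to 41.5 and 54.2, a ratio of 1.30, and red blood cell markers to 2.29 and 10.3. Both sums came mainly from signals under the floor. The smooth muscle and endothelial sums did not rise. Smooth muscle markers summed to 147 and 103, a ratio of 0.70, with 2 of 2 ratios below 1 and 5 of 7 genes under the floor on both arrays. Endothelial markers summed to 102 and 96.7, a ratio of 0.95, with 3 of 4 ratios below 1 and 4 of 8 genes under the floor on both. In tissue RNA of this kind, more cells of a type and more RNA per cell cannot be told apart.

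Of the 9 receptor genes, 6 were over the floor on both arrays and 3 (Nr4a3, Nr2f1 and Vdr) were under it on both. Of the 6, 1 gene, Nr4a2, was higher in the knockout by 2-fold or more and 0 were lower by that much. Across all 8304 genes with a ratio, 7.37% were higher by 2-fold or more and 9.92% lower, so a count of 1 in 6 is too small to be read against that share. Knockout over control gave a log2 ratio above 0 in all 6 genes, a state that 53.4% of all genes shared, but under loess scaling of the arrays it was above 0 in 4 of the 6, with Rxrb and Thra below it. The median log2 ratio of the 6 was 0.53, beside 0.05 over all genes with a ratio. Because the genes were chosen with earlier results of these data known, these values describe the set and do not test a shift of it. Nr4a1, Nr4a2, Nr2f6 and Rxra lay above the upper quartile of all genes over the floor on both arrays (0.46), while Rxrb and Thra lay between the quartiles.

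**Figure D1:**
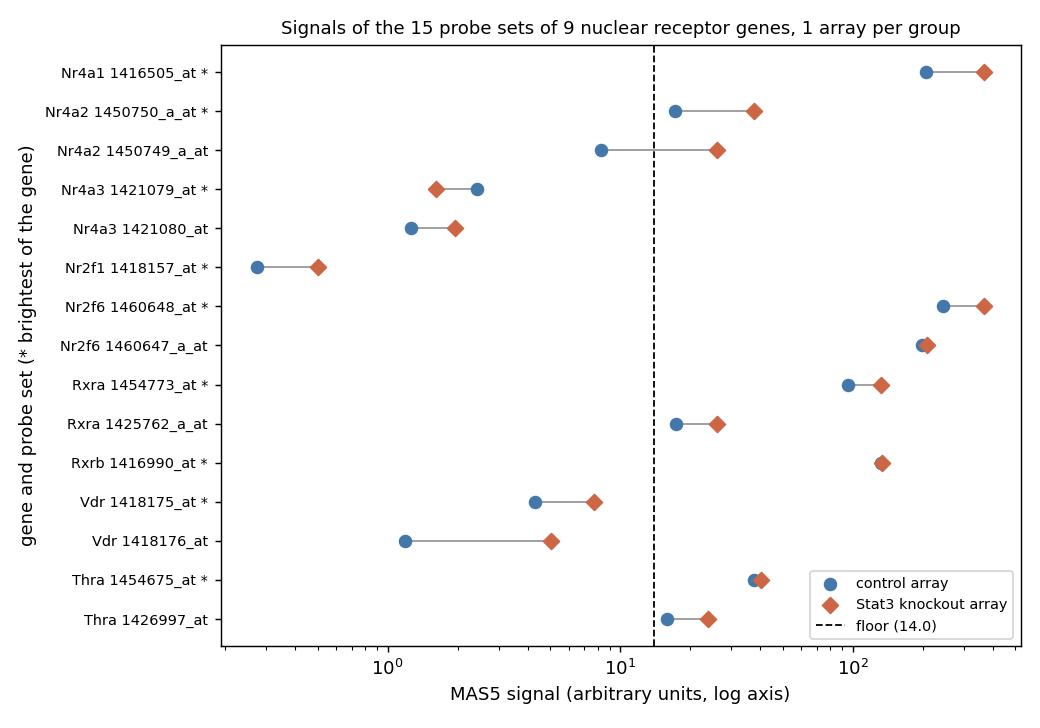
MAS5 signal (log axis) of each of the 15 probe sets of the 9 receptor genes on the control array (circles) and the Stat3 knockout array (diamonds), with the floor of 14.0 as a dashed line and the brightest probe set of each gene starred. All 5 probe sets of Nr4a3, Nr2f1 and Vdr lie left of the floor on both arrays and were given no ratio. With the floor ignored, the knockout point lies right of the control point in 14 of the 15 probe sets. This count includes probe sets under the floor and takes each probe set of a gene separately. No share over all probe sets stands beside it, so it does not show a shift of the set.

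The NR4A genes held the highest ratios. Nr4a1 (gene ID 15370) read 205.5 in the control and 367 in the knockout with probe set 1416505_at, 1.78-fold higher (log2 ratio 0.84), which was short of the 2-fold limit. It ranked 919th of 8304 genes by ratio, with 88.9% of genes lower. Nr4a1 encodes a receptor induced within minutes by growth factors, stress and antigen receptor signals, and this is the single probe set that reads it on the array.

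Nr4a2 (gene ID 18227), a relative best known for its role in dopamine neurons, had signals of 17.2 and 37.8 for probe set 1450750_a_at, 2.20-fold higher (log2 ratio 1.14). Its rank was 450, with 94.6% of genes lower. The second probe set, 1450749_a_at, was under the floor in the control with 8.29 and reached 25.96 in the knockout, at least 1.85-fold higher. Both probe sets were thus higher on the knockout array, but the control signals sat close to the floor or under it. Both are of a design that can read several transcripts of the gene.

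Nr4a3 (gene ID 18124), the remaining NR4A receptor, was under the floor with both of its probe sets. The brighter one read 2.42 in the control and 1.61 in the knockout, and the dimmer one 1.27 and 1.94. Under the floor these opposite orders carry no ratio, so the family was measured through 2 of its 3 genes.

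The stretches of DNA before the starts of the NR4A genes are shown because these genes share a sequence feature that the other receptor genes mostly lacked. Windows from 250 bases before to 50 bases after an annotated transcript start were taken from RefSeq (GRCm38.p6), which gave 11 windows for 8 of the 9 genes. They were searched on both strands for TGACG, the core of the cAMP response element (CRE) that CREB family factors recognise. Nr4a1, Nr4a2 and Nr4a3 each had 4 matches. Capitals mark the core as read on either strand, so that CGTCA is TGACG on the other strand, and positions count from the first transcribed base as 0.

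Nr4a1, chr15:101266596-101266845, + strand, 250 bases up to the start: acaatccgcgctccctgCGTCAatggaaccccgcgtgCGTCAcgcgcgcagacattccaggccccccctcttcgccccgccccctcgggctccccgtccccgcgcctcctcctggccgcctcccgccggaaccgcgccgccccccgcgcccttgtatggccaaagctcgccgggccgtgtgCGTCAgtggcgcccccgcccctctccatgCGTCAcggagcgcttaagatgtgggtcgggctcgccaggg
Nr4a2, chr2:57124004-57124253, - strand, 250 bases up to the start: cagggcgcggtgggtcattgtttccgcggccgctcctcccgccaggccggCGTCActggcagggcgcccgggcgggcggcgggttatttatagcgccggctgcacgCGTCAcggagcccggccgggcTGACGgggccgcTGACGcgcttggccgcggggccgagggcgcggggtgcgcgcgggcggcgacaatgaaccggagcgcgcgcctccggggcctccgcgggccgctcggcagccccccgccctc
Nr4a3, chr4:48045069-48045098, + strand, 30 bases with 2 of its 4 matches: gagggTGACGtagcgtcccatgtCGTCAca

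In Nr4a1 all 4 cores lay on the strand opposite to the gene, beginning 233, 213, 69 and 40 bases before the start. The other 2 matches of Nr4a3 began 205 and 147 bases before it. At least 1 core occurred in 20.8% of all 32851 windows in the table, and at least 4 in 76 of them (0.231%). Base composition differs between windows: among the 6218 windows with a share of G and C at least that of the Nr4a3 window (64.7%), 32.4% had at least 1 core and 0.563% at least 4. The limit of 4 and the match on G and C were chosen after these sequences were seen, so the shares do not test rarity. Among the other receptor genes, 1 window of Rxrb held 1 match and the rest held 0. The full palindrome, TGACGTCA, was in none of the 11 windows, against 1.79% of all windows. The motif that STAT proteins recognise, searched as TTCNNNGAA, was also in none of the 11, against 8.30% of all windows. With 11 windows, a count of 0 is too small to be read against either share. No match on G and C was made for these motifs, so their absence does not set these windows apart from others. A match describes letters only, the same 4 matches stood before Nr4a1 and Nr4a2, which had ratios, and before Nr4a3, which was under the floor, and the annotated spans of Nr4a1 and Nr4a3 begin upstream of these starts, so that other transcripts of them start elsewhere.

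**Figure D2:**
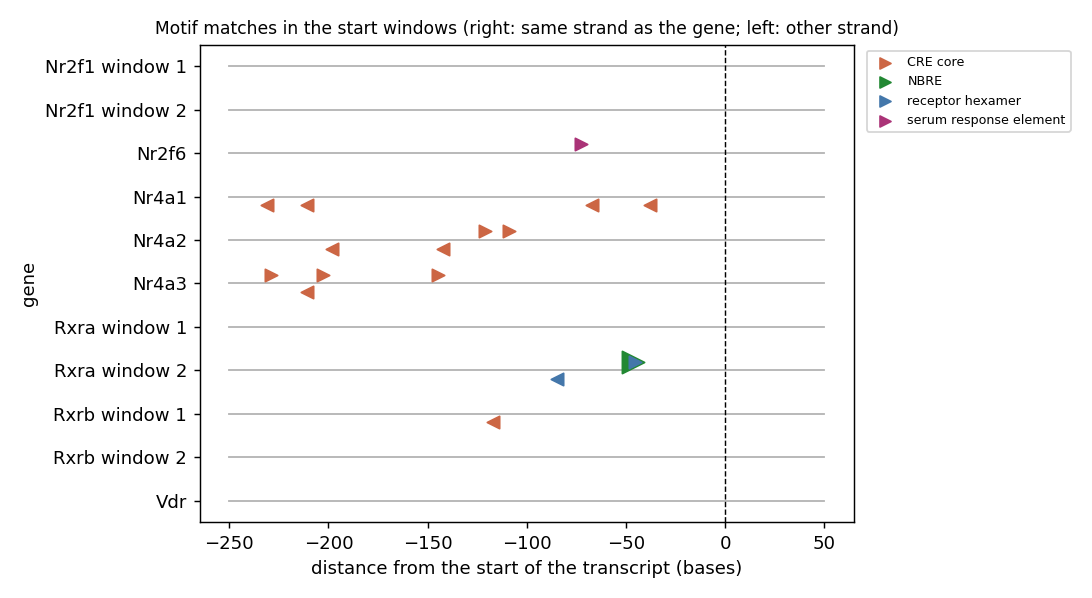
Positions of motif matches in the 11 start windows of 8 receptor genes, by distance in bases from the transcript start (dashed line), with matches on the gene's strand above each line and on the other strand below it. The 3 NR4A genes each have 4 cores of the cAMP response element before the start, and Rxrb window 1 is the single other line with one.

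Other immediate early genes were examined beside the NR4A genes. Of the 28 with a ratio, 8 (28.6%) were past 2-fold higher and 4 (14.3%) past 2-fold lower in the knockout. Across all genes with a ratio, 7.37% were higher by that much and 9.92% lower. The median log2 ratio of the 28 was 0.52. Per1, a clock gene with rapid induction, had signals of 48.2 and 176 (3.65-fold higher). Dusp1, a MAP kinase phosphatase gene, had 375 and 1225 (3.26-fold higher), and Egr1, a zinc finger factor gene, had 462 and 1239 (2.68-fold higher). Ier5, Nfil3 and Klf10 went the other way, at 3.62-fold, 2.67-fold and 2.51-fold lower. Fos, the partner of Jun in AP-1, had 1967 and 3147, within 2-fold. Many immediate early genes also respond to tissue dissociation, and the part of dissociation in the NR4A ratios was not tested.

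In the cAMP and CREB list, 11 of 15 genes on the array had a ratio. Their median log2 ratio was 0.16, with 1 gene past 2-fold, in the higher direction (9.09%). A count of 1 in 11 is too small to be read against the 7.37% of all genes. Ptger2, a prostaglandin E2 receptor that raises cAMP, had signals of 521 and 1162 and was 2.23-fold higher. Ptger4, another receptor of this kind, had 1197 and 1301. Prkar1a, a regulatory subunit of protein kinase A, had 657 and 695, and Adcy6, an adenylyl cyclase, 266 and 402. Adcy9, another adenylyl cyclase, had 136 and 245 by its brightest probe set. A dimmer Adcy9 probe set was past 2-fold higher, with 92.0 and 199, and a further one was within it, with 76.8 and 110. Apart from Ptger2, the named genes of the pathway differed by less than 2-fold by their brightest probe sets.

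Nr2f6 (gene ID 13864), an orphan receptor of the COUP family that mostly represses transcription, read 243.9 in the control and 367 in the knockout with probe set 1460648_at, 1.51-fold higher (log2 ratio 0.59). Its other probe set, 1460647_a_at, was level between the arrays, with 199 and 208 (log2 ratio 0.06). The log2 ratios differed by 0.53. For comparison, probe sets of 1 gene differed with a pooled SD of 0.31 per probe set over 2853 genes, which makes 0.44 for a difference of a pair. The higher Nr2f6 level on the knockout array thus rests on 1 of its 2 probe sets. A serum response element stood 77 bases before the start of Nr2f6, a motif found in 1.63% of all windows. It was 1 of several motifs searched in the 11 windows, so this match is not read as unusual.

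Nr2f1 (gene ID 13865), which encodes COUP transcription factor I, was under the floor with signals of 0.274 and 0.500. Nr2f2, which encodes COUP transcription factor II and is known in the uterus as a stromal regulator, was measured with 168 and 274 (log2 ratio 0.71). Its dimmer probe sets read 48.4 and 91.6, and 20.7 and 59.9, the last of them past 2-fold (log2 ratio 1.53). Nr2f2 is also counted among the stromal markers above, which summed to a higher signal on the knockout array, and the part of stromal RNA in the ratios of the receptors was not tested.

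Rxra (gene ID 20181), an RXR prominent in epithelia, had signals of 95.5 and 132 for probe set 1454773_at, 1.38-fold higher (log2 ratio 0.46). The dimmer probe set 1425762_a_at had 17.3 and 26.2, 1.51-fold higher (log2 ratio 0.60). Both probe sets of Rxra therefore had the knockout above the control by a similar amount, 0.13 apart on the log2 scale, and neither reached 2-fold. Rxrb (gene ID 20182), its widely expressed paralogue, was level, with 132 and 134 for its single probe set 1416990_at (log2 ratio 0.02). By ratio, 75.5% of genes ranked below Rxra and 47.6% below Rxrb.

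Part of the window of a downstream start of Rxra is shown because it held the site that NR4A monomers bind, AAAGGTCA (in capitals), here 50 bases before the start. This motif occurred in 1.51% of all windows and in none of the other receptor windows. Its last 6 letters are also the receptor hexamer AGGTCA, which occurred in 16.3% of all windows and a second time in this one. Several motifs were searched in the 11 windows, and this stretch was chosen after the match was seen. The share per window therefore does not measure how unusual the match is.

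Rxra, chr2:27709231-27709260, + strand, 30 bases: tgggtggcaggAAAGGTCAgtcactctctg

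The receptors that pair with RXR were mostly under the floor. Of 12 partners and related ligand-activated receptors on the array, Rarg, a retinoic acid receptor, had a ratio, with signals of 50.5 and 49.4, and 11 had signals under 14.0 on both arrays. These 11 were Rxrg, Rara, Rarb, Thrb, Ppara, Ppard, Pparg, Nr1h3, Nr1h4, Nr1i2 and Nr1i3. A signal under the floor sets only an upper bound on what a probe set could show.

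Genes that RXR heterodimers are known to activate differed in both directions. The 14 with a ratio had a median log2 ratio of -0.08, and 2 were past 2-fold higher and 3 past 2-fold lower. With 14 genes, these counts are too small to be read against the 7.37% and 9.92% of all genes. The 3 lower ones are genes of the retinoic acid response. Crabp2, a cytoplasmic retinoic acid carrier, read 176 in the control and was at least 12.5-fold lower in the knockout, where it lay under the floor. Tgm2, which encodes transglutaminase, had 2034 and 325 (6.26-fold lower), and Cyp26a1, which breaks down retinoic acid, 86.3 and 35.9 (2.41-fold lower). The other 4 Tgm2 probe sets over the floor had log2 ratios from -2.85 to -2.35. Dhrs3, a retinal reductase gene that retinoic acid also induces, went the other way with 115 and 240 (2.10-fold higher), as did Mylip, an LXR target that degrades the LDL receptor, with 141 and 295 (2.09-fold higher). The LXR targets Abca1 and Lpcat3 had 399 and 611, and 780 and 782, and Plin2, a lipid droplet coat gene, had 426 and 604.

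Vdr (gene ID 22337), the vitamin D receptor, was under the floor with both probe sets. The brighter, 1418175_at, read 4.32 in the control and 7.69 in the knockout, and the dimmer, 1418176_at, 1.19 and 5.06. Both were higher on the knockout array, in a range where signals were not given a ratio. Cyp24a1 and Cyp27b1, the enzymes that inactivate and make the active hormone, were also under the floor.

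Among known targets of the vitamin D receptor and vitamin D metabolism genes, 9 of 13 on the array had a ratio. Of these 9, 1 was past 2-fold higher and 2 past 2-fold lower, too few to be read against the 7.37% and 9.92% of all genes. Trpv6, an epithelial calcium channel gene, had 152 and 66.5 (2.28-fold lower), and Slc34a2, a phosphate transporter gene, read 42.3 in the control and was at least 3.01-fold lower in the knockout, where it too lay under the floor. Calb1 and S100g, calbindin genes that steroid hormones also control in the uterus, had signals of 5018 and 8267, and of 3770 and 5825, higher in the knockout but within 2-fold. The Calb1 value of 8267 was the highest signal on the knockout array, and whether that probe set was still in its linear range was not tested. A dimmer Calb1 probe set was past the limit, with 198 and 1192 (log2 ratio 2.59). Cd14, a lipopolysaccharide co-receptor gene, had 1262 and 2101, and Bmp6, a growth factor gene under the floor in the control, was at least 2.01-fold higher.

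Thra (gene ID 21833), the thyroid hormone receptor alpha gene, was nearly level, with 37.6 and 40.3 for probe set 1454675_at (1.07-fold, log2 ratio 0.10). Its dimmer probe set 1426997_at read 15.9 and 23.9, 1.51-fold higher (log2 ratio 0.59), a difference of 0.49 between the log2 ratios of the same gene. Thra gives transcripts for a hormone-binding receptor and for a variant that does not bind hormone, and which of them each probe set reads was not determined. The 3' end of Thra overlaps Nr1d1, a clock repressor gene on the opposite strand, which was under the floor on both arrays.

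Of 6 genes of thyroid hormone metabolism, transport and response with a ratio, 1 was past 2-fold higher and 0 past 2-fold lower. Such counts in 6 genes are too small to be read against the 7.37% and 9.92% of all genes. The gene past 2-fold was Thrsp, which takes part in the control of fat synthesis and was named for its response to thyroid hormone. It had 1119 and 3872 (3.46-fold higher). A second Thrsp probe set had 480 and 2343 (log2 ratio 2.29). Klf9, a Krüppel-like factor gene that thyroid hormone and other nuclear receptor ligands induce, had 341 and 524, and of its 5 dimmer probe sets with a ratio, 4 had the same direction (log2 ratios of 0.15, 0.22, 0.34 and at least 0.54) and 1 the other (-0.38). Dio2, the deiodinase that makes active hormone, had 24.9 and 20.2, and Me1, a malic enzyme gene, 55.8 and 36.3. A dimmer Me1 probe set reached the limit, with 60.95 and 29.0 (log2 ratio -1.07).

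**Figure D3:**
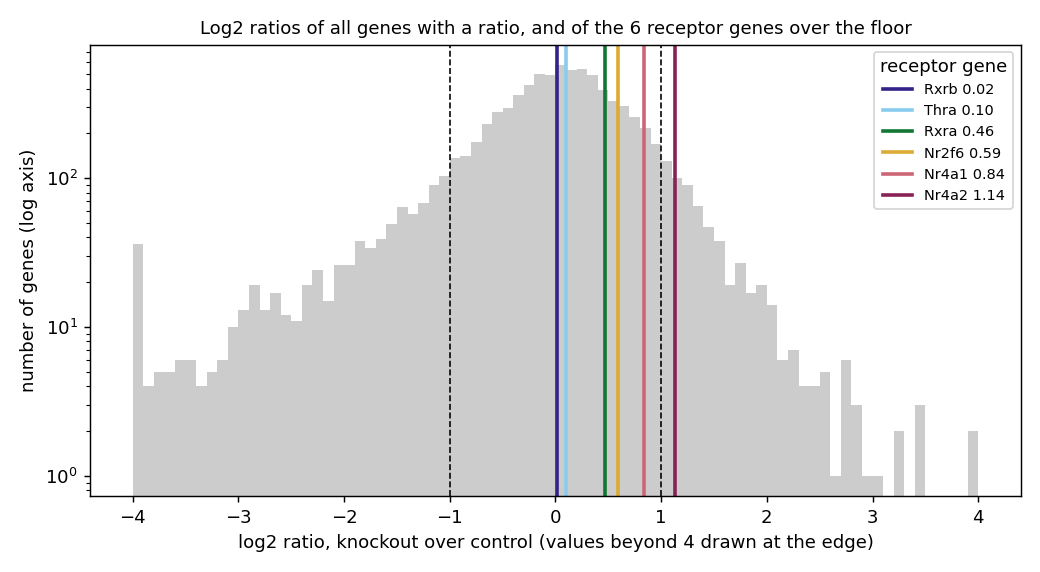
Number of genes (log axis) by log2 ratio of knockout over control for the 8304 genes with a ratio, with coloured lines at the 6 receptor genes over the floor and dashed lines at 2-fold. Nr4a2 lies beyond the upper dashed line at 1.14, and Rxrb and Thra lie near the middle of the distribution at 0.02 and 0.10.

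The remaining orphan and steroid receptors give the setting of these genes. Of 33 nuclear receptors on the array other than the 9, 23 were under the floor on both arrays, and 1 of the 10 with a ratio was past 2-fold higher. With 10 genes, that count is too small to be read against the 7.37% of all genes. The median log2 ratio of the 10 was 0.20. For the 6 other orphan receptors among them it was 0.60, near the 0.53 of the 6 genes with a ratio among the 9 described here. Of these 6 other orphan receptors, 5 were above 0, beside 53.4% of all genes, a count too small to be read against that share. The remaining 11 of 17 other orphan receptors on the array were under the floor. The gene past 2-fold was Nr1d2, a clock repressor, with 167 and 358 (2.14-fold higher). Esrra, an orphan receptor of mitochondrial genes, had 195 and 145, and Nr2c1 had 73.96 and 105. The progesterone receptor gene Pgr had 54.5 and 41.6, the oestrogen receptor gene Esr1 had 19.9 and 21.8, and the glucocorticoid receptor gene Nr3c1 had 59.4 and 65.7. No steroid receptor with a ratio was past 2-fold.

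Coactivators and corepressors that nuclear receptors recruit were mostly level. Of 19 with a ratio, 17 were within 2-fold by their brightest probe sets and the other 2 were lower (10.5%). A count of 2 in 19 is too small to be read against the 9.92% of all genes. The median log2 ratio of the 19 was 0.15. Med1, a coactivator gene within 2-fold by its brightest probe set (206 and 180), was past 2-fold higher in a dimmer one. That one had 104 and 257 (log2 ratio 1.30), and a further one 36.6 and 38.6 (0.07). Ppargc1b, a coactivator of energy metabolism, had 41.8 and 14.4 (2.90-fold lower), a knockout signal close to the floor. Prmt1, an arginine methyltransferase that modifies histones, had 1055 and 509 (2.07-fold lower). Ncoa4, first described as an androgen receptor coactivator and known for ferritin turnover, had 410 and 818, just within the limit (log2 ratio 1.00), and its dimmer probe set had a log2 ratio of 1.11. Cops2, a corepressor and signalosome subunit, had 434 and 512 (128 and 124 in a dimmer probe set), and Hdac3, the deacetylase of the NCoR complex, 456 and 477.

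**Figure D4:**
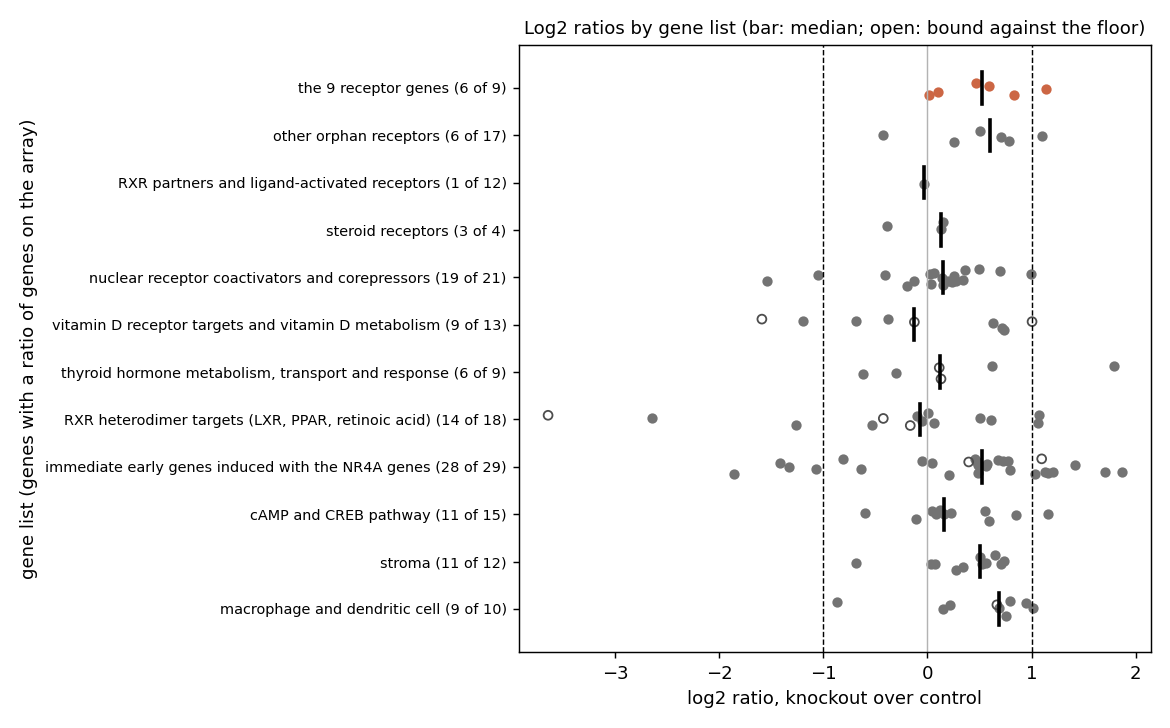
Log2 ratio of knockout over control for each gene with a ratio, by list, with the median of each list as a bar, bounds against the floor as open circles and dashed lines at 2-fold. The receptor genes (top row) have a median of 0.53, beside 0.60 for other orphan receptors and 0.52 for immediate early genes. It is 0.51 for stromal markers and 0.69 for macrophage and dendritic cell markers, and from -0.13 to 0.16 for the other lists drawn.

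The ratios were recomputed under the processing alternatives. Nr4a1 had log2 ratios from 0.79 to 0.90 over 11 settings, and Rxra from 0.38 to 0.53. Nr4a2 ranged from 0.73 to 1.20 over the 9 settings that gave it a value, and it was short of 2-fold when the floor value was added to both signals. Nr2f6 ranged from 0.33 to 0.65, its lowest value being the mean of its probe sets. Thra ranged from -0.02 to 0.35 and Rxrb from -0.06 to 0.08, so neither had a settled direction.

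**Figure D5:**
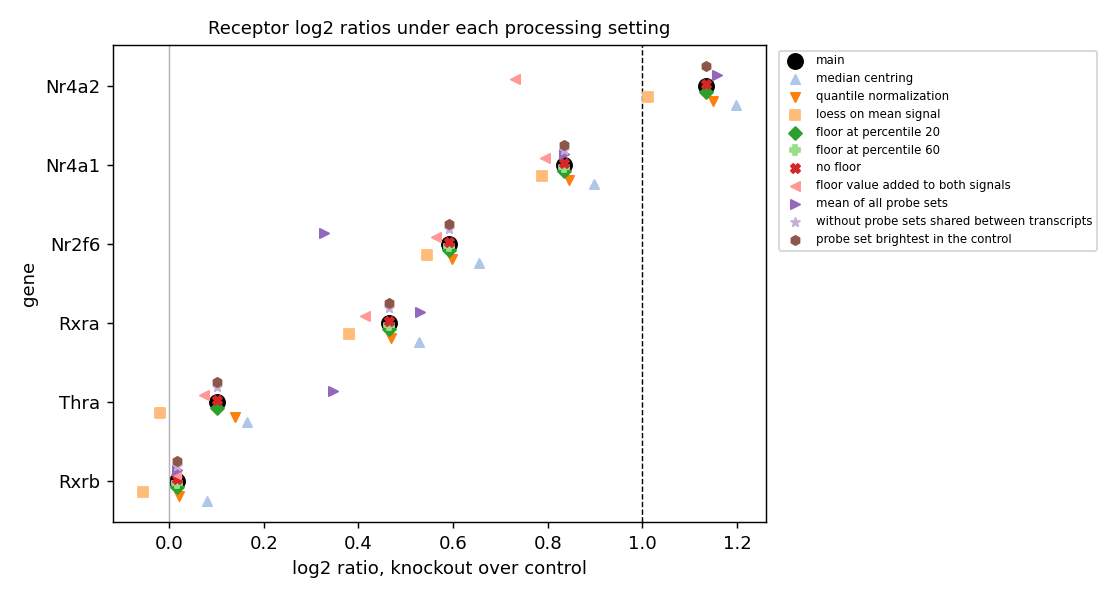
Log2 ratio of knockout over control for the 6 receptor genes over the floor under each processing setting (symbols), with 0 as a grey line and 2-fold as a dashed line. Nr4a2 is the single gene to the right of the dashed line, and loess scaling puts Rxrb and Thra left of 0.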

How the data were processed

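Total RNA from 2 pools was labelled and hybridised to 1 array each, with 100 ng per array, per the labels' protocols. Signals were made with MAS5, and Affymetrix Expression Console 1.1 is named too, per the submitters' processing notes. The authors deposited 1 linear intensity value per probe set and array. Of 22690 probe sets, 64 were controls. Of the others, 20380 had 1 gene, 691 several and 1555 none in the platform annotation. Symbols were updated by gene ID through RefSeq (GRCm38.p6; 20351 matched). The 9 genes had 15 probe sets.

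The probe set of a gene with the highest average log2 signal stood for it. Signals under the 40th percentile were set to it, a fold against such a signal is a bound, and genes were counted at 2-fold. The named genes are all 9 receptors, with at most 6 genes per list past 2-fold (those of largest ratio) and at most 3 others (those of highest signal). Genes given as under the floor, Med1, Adcy9 and dimmer probe sets were named after their values were seen. The members and lists were chosen with earlier results of these data known. The number of arrays limits the precision. Ratios were computed in Python 3.11.15 with pandas 2.3.3 and statsmodels 0.14.6, and the calculation was tested on simulated data. The count of at least 4 CRE cores, the match on G and C and the stretches printed were chosen after seeing the sequences. Protein sequences were not used here. Alternatives changed the scaling, the floor, the probe set and the fold limit.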

Additional observations from a re-analysis of the deposited data

How the results depend on the processing

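Nr4a2 was the single receptor gene at least 2-fold higher under 7 of the 12 alternatives. The count was 0 with the floor at the 60th percentile, with the floor value added to both signals (log2 ratio of Nr4a2 0.73), without probe sets shared between transcripts, which leaves out Nr4a2, and at a limit of 3-fold. It was 3 of 6 at 1.5-fold, with Nr4a1 and Nr2f6, a limit that 19.4% of all genes also passed in the higher direction. No receptor gene was at least 2-fold lower under any of the 12. Over all genes, the counts higher and lower were 346 and 449 of 6173 genes with a ratio with the floor at the 60th percentile. They were 1927 and 1774 of 12393 with no floor. Of 8304 genes, they were 1607 and 1541 at 1.5-fold and 143 and 401 at 3-fold. With the floor at the 20th percentile 1094 of 10943 were higher. With no floor, the log2 ratio was -0.58 for Nr4a3, 0.87 for Nr2f1 and 0.83 for Vdr. Signal over background limits these 3 genes and Nr4a2, and 1 array per group limits all of them. No paired analysis was possible because each group has 1 array and the result comes from no test.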
